A study of Mus musculus with 50 samples.

Results

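A set of 10 genes tied to neutrophils and to their recruitment was followed in mouse sarcomas by bulk RNA-seq. The set held 7 genes of neutrophils (S100a8, S100a9, Csf3r, Cxcr2, Fpr1, Fpr2 and Retnlg) and 3 genes for chemokines that bind CXCR2 (Cxcl1, Cxcl2 and Cxcl5). The genes were chosen by name, with earlier results of these data known. Their Ensembl identifiers were matched to symbols in the count table. All 10 were found among the 37469 genes of the table, and all 10 were among the 19327 genes that passed the filter on low counts and were tested.

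The tumors were p53/MCA sarcomas of 129/SvJae mice. Primary tumors arose in p53FL/FL mice, aged 6 to 10 weeks at induction, after Adeno-Cre was injected into the gastrocnemius and was followed there by the carcinogen MCA, so that Trp53 was deleted only in cells that the adenovirus reached. Transplant tumors grew in the same muscle of syngeneic mice after injection of 50000 cells of line 402230, which is 1 cell line made from 1 primary sarcoma of this kind, so the 16 transplants share 1 tumor of origin while each of the 32 primary tumors has its own. At about 150 mm3, mice of both models received 200 ug of isotype control antibody or of anti-PD-1 (muDX400, which blocks the checkpoint receptor PD-1), followed by 0 or 20 Gy to the hind limb, and tumors were taken 3 days later. There were 8 primary tumors and 4 transplants for each pair of dose and antibody, and no group was free of both antibodies. The age of the transplant hosts was not given in the sources used here. A library was taken as a replicate of its group because the labels list it as a separate tumor. The p-values rest on the spread between libraries within groups, with 1 estimate per gene for all 48 tumors. All transplants come from 1 line, so spread between transplant lines is not part of these p-values.

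Neutrophils enter inflamed tissue along gradients of chemokines that carry the Glu-Leu-Arg (ELR) motif, and in the mouse CXCL1, CXCL2 and CXCL5 all act through the receptor CXCR2. The receptor for the growth factor G-CSF, encoded by Csf3r, drives neutrophil production, and the formyl peptide receptors FPR1 and FPR2 sense bacterial and mitochondrial peptides and other products of damage. S100A8 and S100A9 form calprotectin, an abundant protein of the neutrophil cytosol that monocytes also make, and Retnlg encodes a resistin-like protein made in bone marrow and neutrophils. Macrophages and monocytes also express the Fpr genes, and stromal, epithelial and tumor cells can make the ligands.

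The 3 ligand genes lie in 1 cluster on chromosome 5 of GRCm38 (mm10), all on the forward strand: Cxcl5 at chr5:90759360-90761624, Cxcl1 at chr5:90891241-90893115 and Cxcl2 at chr5:90903871-90905938. From the start of Cxcl5 to the end of Cxcl2 they span 146578 bases. The coding stretch around the ELR motif, the part of the ligand that CXCR2 recognises, is shown from the GENCODE M21 gene models for each of the 3 genes, 5′ to 3′, with the codons for Glu-Leu-Arg in capitals:
Cxcl1: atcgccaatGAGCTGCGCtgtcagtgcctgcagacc
Cxcl2: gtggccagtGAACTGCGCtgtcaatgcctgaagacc
Cxcl5: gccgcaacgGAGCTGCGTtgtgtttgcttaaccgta
The coding sequences have 288 bases in Cxcl1, 300 in Cxcl2 and 396 in Cxcl5. Over the whole coding sequence, 75.7% of aligned positions were the same in Cxcl1 and Cxcl2, against 49.9% in Cxcl1 and Cxcl5 and 48.9% in Cxcl2 and Cxcl5. The closest relative of Cxcl2 was Cxcl3, with 89.7% of positions the same and a shared stretch of 157 bases, so fragments that lie wholly within it match both genes, and how many reads this touched was not measured.

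The promoters of Cxcl1 and Cxcl2 are shown because these genes moved together in the tumors. RefSeq start sites on GRCm38.p6 were used, and each line runs from 180 to 31 bases before the start on the forward strand. Capitals mark matches on either strand to the NF-kB motif, GGGA and CC with any 4 bases between them:
Cxcl1, chr5:90891065-90891214: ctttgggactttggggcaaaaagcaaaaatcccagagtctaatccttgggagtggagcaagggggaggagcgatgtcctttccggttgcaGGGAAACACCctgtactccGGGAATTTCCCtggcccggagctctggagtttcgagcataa
Cxcl2, chr5:90903719-90903868: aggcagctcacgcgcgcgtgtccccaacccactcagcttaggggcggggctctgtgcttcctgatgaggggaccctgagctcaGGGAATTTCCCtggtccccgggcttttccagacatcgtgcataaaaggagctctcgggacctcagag
Both promoters held the run GGGAATTTCCC, which contains a match on each strand that overlaps the other, at 71 to 61 bases before the start of Cxcl1 and at 97 to 87 bases before that of Cxcl2. Within 250 bases before the start, 17.6% of 32851 promoters held a match to the NF-kB motif, and so did 3 of the 9 members with a promoter entry (Csf3r, Cxcl1 and Cxcl2). The other motifs searched, on both strands and over the same length, were TTGCNNAA for C/EBP, in 9.56% of promoters and in Retnlg and S100a9, GAGGAAG for PU.1, in 10.6% and in Csf3r and S100a8, and TGANTCA for AP-1, in 6.75% and in none of the 9. A match is a run of letters and was not tested as a binding site.

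The other members lie apart from the ligands. S100a8 (chr3:90668978-90670035, forward strand) and S100a9 (chr3:90692632-90695721, reverse strand) face each other, 22597 bases apart from end to end. Fpr1 (chr17:17876471-17883940, reverse strand) and Fpr2 (chr17:17887824-17893952, forward strand) run away from each other, with 3884 bases between their starts, and 66.4% of aligned coding positions were the same in the pair. Fpr2 overlaps Fpr3 by 48 exon bases on the same strand, and reads there are uncertain. Csf3r is at chr4:126024550-126044440, Cxcr2 at chr1:74153989-74161246 and Retnlg at chr16:48872621-48874496, all on the forward strand.

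Total counts were 31810461 to 54008259 per tumor library. Skeletal muscle, the tissue around these tumors, differed widely between libraries: the summed level of 9 muscle genes ran from 14.2 to 75010 CPM (counts scaled to library size) in irradiated primary tumors and from 60.3 to 7282 CPM in unirradiated primary tumors. It passed 2% of all counts in 3 libraries, all of them irradiated primary tumors. The members' results without these 3 are given only for radiation in primary tumors over both antibodies. Trp53, the gene deleted to start the tumors, was still read in every group. Host cells keep the gene, and counts per gene do not check the deletion. Which cells these reads came from was not tested. Its log2 fold change was 0.29 in transplants against primary tumors (adjusted p = 0.0290) and 0.32 after radiation in primary tumors (adjusted p = 0.0491). A library labelled as the parental primary tumor of line 402230 and another labelled as the cell line went against their labels. In the library labelled primary tumor the 4 leukocyte genes Ptprc, Itgb2, Laptm5 and Coro1a had 83 counts in all and the 6 endothelial genes 34, against 15105 and 16144 in the library labelled cell line, whose cells in culture should hold neither type. Trp53 had 517 counts (10.7 CPM) in the library labelled primary tumor and 915 (22.2 CPM) in the library labelled cell line. Both libraries were kept out of every comparison between groups and are described at the end under their labels.

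Per kilobase of exon, the level of the members over the 48 tumors had its highest median at S100a9 (23.8 CPM per kb), followed by Csf3r (13.8), S100a8 (13.7), Cxcl1 (7.88), Cxcl5 (7.55), Fpr2 (7.498), Fpr1 (4.93), Retnlg (2.02), Cxcr2 (1.98) and Cxcl2 (1.74). Every neighbouring pair in this order overlapped widely across tumors. The order hides a large difference in spread: the highest tumor was 22.7 times the lowest for Csf3r, 29.7 times for Fpr2 and 69.0 times for Fpr1, but 544 times for S100a9, 715 times for S100a8, 1047 times for Cxcl5 and 2196 times for Retnlg. In the plot of levels by group, Csf3r and the Fpr genes form tight columns in most groups, while the S100a genes, Cxcr2 and Retnlg run over 2 or more decades within a single group of primary tumors.

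**Figure D1:**
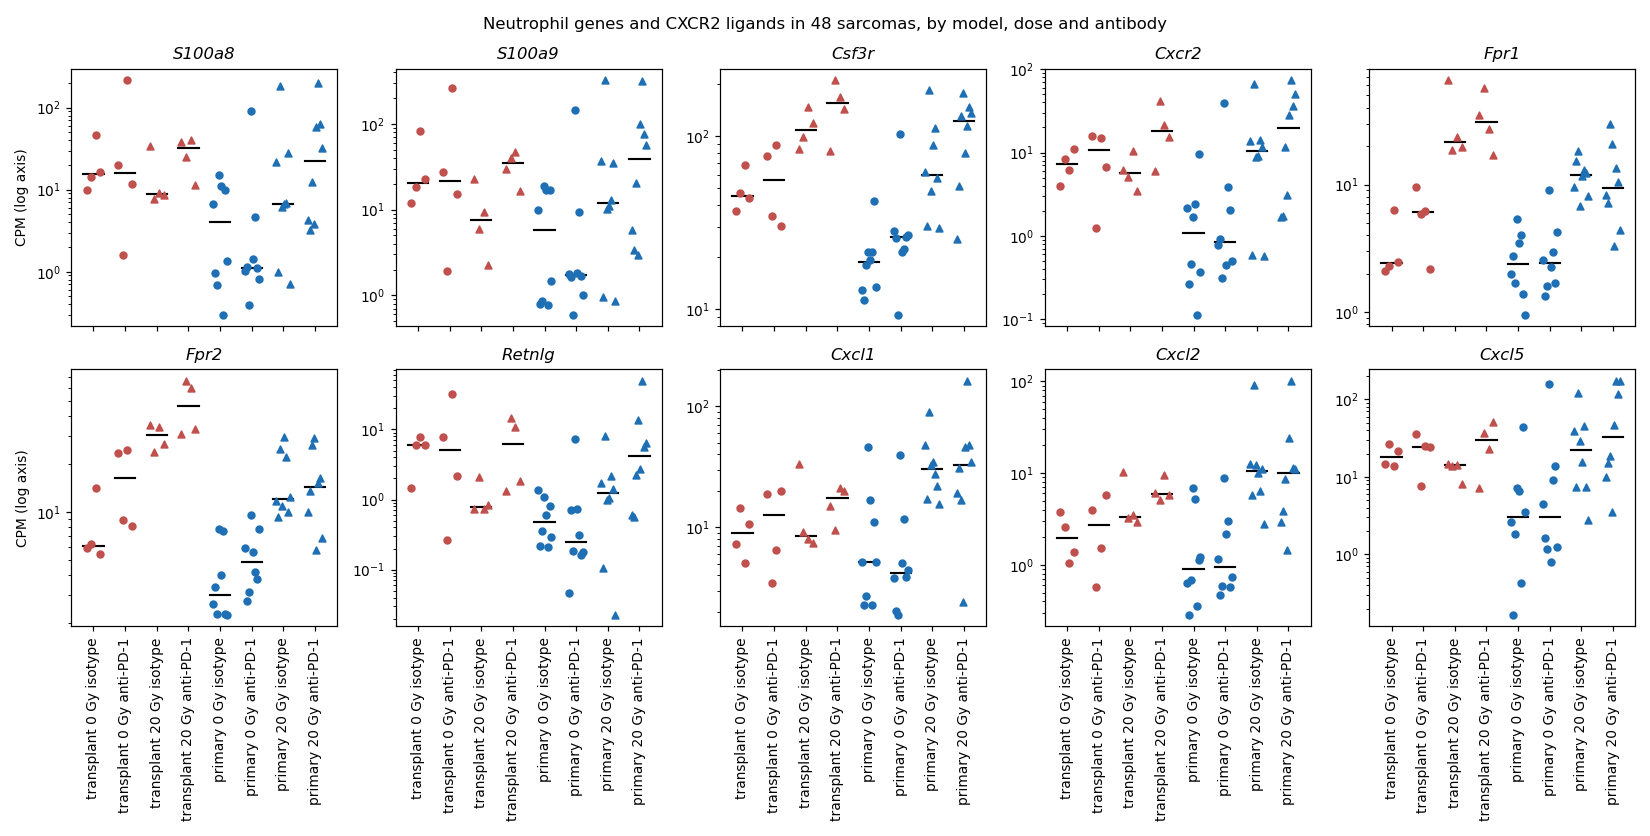
Level of each of the 10 genes in each of the 48 tumor libraries (1 point per library, vertical axis in CPM on a log scale, 1 panel per gene), by model, dose and antibody, with circles for 0 Gy, triangles for 20 Gy, red for transplants, blue for primary tumors and black lines at the group medians. For Fpr1 the transplant triangles lie between 17.2 and 65.8 CPM, above every unirradiated transplant, whose highest value was 9.60 CPM.

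The effect of 20 Gy was asked first in primary tumors, as the mean over both antibodies. All 10 members rose, with log2 fold changes of 1.76 to 3.23 and a median of 2.11, while the median of all 19327 genes was 0.00 and 16.8% of them were called higher by edgeR's quasi-likelihood test at an adjusted p under 0.05. Since these are bulk samples, more cells of a type and more RNA of a gene per cell cannot be told apart, here or in any later comparison. Without the 3 libraries high in muscle genes, 9 of the 10 rose, and Cxcl5 kept its size (log2 fold change 1.75) with an adjusted p of 0.0565.

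Among the receptors, Fpr1, Fpr2 and Csf3r had the smallest SEs of the set. Fpr2 ran from 2.25 CPM (median 3.01) to 7.80 in unirradiated primary tumors given isotype and from 2.73 (median 4.86) to 9.502 in those given anti-PD-1. After 20 Gy it ran from 9.32 (median 11.97) to 29.7 with isotype and from 5.71 (median 14.2) to 29.2 with anti-PD-1. Under isotype the 2 doses did not overlap, and over both antibodies 13 of 16 irradiated tumors lay above every unirradiated one. The log2 fold change over both antibodies was 1.77 (SE 0.25, adjusted p = 6.12e-07), a 3.42-fold rise.

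Fpr1, whose product binds formylated peptides with high affinity, was also separated by dose under isotype, from 0.955 to 5.40 CPM (median 2.38) at 0 Gy and from 6.75 to 18.3 CPM (median 11.97) at 20 Gy. Under anti-PD-1 the ranges overlapped, 1.33 to 9.04 CPM (median 2.41) at 0 Gy against 3.29 to 29.8 (median 9.35) at 20 Gy. Over both antibodies it rose 4.08-fold (log2 fold change 2.03, SE 0.30, adjusted p = 1.68e-06), and 16 of 16 irradiated tumors were above the unirradiated median.

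Csf3r, the G-CSF receptor and the most abundant receptor of the set per kilobase, ran from 11.3 to 42.5 CPM (median 18.7) in unirradiated tumors given isotype and from 29.4 to 187 (median 60.0) in irradiated ones. With anti-PD-1 it ran from 9.30 to 103.5 CPM (median 26.1) at 0 Gy, where 1 tumor at 103.5 stood well above the next at 28.2, and from 25.3 to 179 at 20 Gy, where the middle tumors were at 115.2 and 130.7. The doses overlapped under each antibody, and 16 of 16 irradiated tumors were above the unirradiated median. The rise was 3.56-fold (log2 fold change 1.83, SE 0.28, adjusted p = 2.41e-06).

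Cxcr2, the receptor for the 3 ligands, was near 1 CPM in most unirradiated primary tumors and varied far more. With isotype it ran from 0.113 to 9.51 CPM (median 1.07) at 0 Gy and from 0.567 to 67.2 (median 10.4) at 20 Gy, where 4 of 8 tumors lay above every unirradiated one given isotype. With anti-PD-1 it ran from 0.311 to 39.0 (median 0.841) at 0 Gy and from 1.70 to 73.9 (median 19.9) at 20 Gy. Cxcr2 rose 5.68-fold over both antibodies (log2 fold change 2.51, SE 0.67, adjusted p = 0.00415), with an SE more than 2 times that of Fpr1 or Fpr2. Leaving out single tumors kept its call, with log2 fold changes from 2.05, without replicate 3 of the irradiated primary tumors given isotype, to 3.63, without replicate 4 of the unirradiated primary tumors given anti-PD-1.

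The RNA of the genes for secreted and cytosolic proteins of neutrophils rose by a like amount, and the call for the S100a genes rested on few tumors. S100a9 ran from 0.771 to 18.6 CPM (median 5.72) at 0 Gy and from 0.862 to 324 (median 11.95) at 20 Gy with isotype. With anti-PD-1 it ran from 0.596 to 144.2 CPM (median 1.71) at 0 Gy and from 2.93 to 315 (median 38.7) at 20 Gy. The ranges overlapped almost in full under isotype, apart from 3 irradiated tumors at 34.9, 36.6 and 324 CPM. The log2 fold change was 2.27 (SE 0.81, adjusted p = 0.0288).

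S100a8, its partner in calprotectin, moved with it: 0.301 to 15.1 CPM (median 4.01) and 0.703 to 185 (median 6.78) with isotype, and 0.389 to 91.2 (median 1.12) and 3.26 to 200 (median 22.1) with anti-PD-1, at 0 and 20 Gy in turn. The log2 fold change was 2.18 (SE 0.77, adjusted p = 0.0284). Leaving out replicate 3 of the irradiated primary tumors given isotype, or replicate 6 of those given anti-PD-1, ended the call for both genes, with log2 fold changes down to 1.36 and adjusted p-values up to 0.157 for S100a8 and 0.171 for S100a9. Leaving out replicate 4 of the unirradiated primary tumors given anti-PD-1 raised them to 3.73 and 3.76.

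Retnlg, a short transcript, had a median level, not scaled by length, of 0.332 CPM over the 16 unirradiated primary tumors and 1.92 CPM over the 16 irradiated ones. Its range after radiation went from 0.0227 CPM, a single count, to 49.8 CPM. It rose 5.18-fold (log2 fold change 2.37, SE 0.66, adjusted p = 0.00572), and 14 of 16 irradiated tumors were above the unirradiated median, as for S100a8, S100a9 and Cxcr2. Without single tumors its log2 fold change ran from 1.82, without replicate 6 of the irradiated primary tumors given anti-PD-1, to 3.30, without replicate 4 of the unirradiated ones given anti-PD-1, and its call held.

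Among the ligands, Cxcl2 had the largest fold change of the set. With isotype it ran from 0.286 to 6.83 CPM (median 0.905) at 0 Gy and from 2.81 to 92.3 (median 10.6) at 20 Gy. With anti-PD-1 it ran from 0.476 to 8.85 (median 0.9495) at 0 Gy and from 1.45 to 102.1 (median 9.92) at 20 Gy. The doses overlapped under each antibody, but 9 of 16 irradiated tumors were above every unirradiated one and 16 of 16 were above the unirradiated median. The rise was 9.41-fold (log2 fold change 3.23, SE 0.57, adjusted p = 2.98e-05).

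Cxcl1, the closest relative of Cxcl2 in the set, rose from a median of 5.20 CPM (2.29 to 45.99) to 30.0 (15.7 to 89.8) with isotype, and from 4.16 (1.89 to 39.2) to 32.8 (2.39 to 163) with anti-PD-1. Its log2 fold change was 1.99 (SE 0.46, adjusted p = 0.00101), and 15 of 16 irradiated tumors were above the unirradiated median. Cxcl5 ran from 0.167 to 44.2 CPM (median 3.07) and from 2.75 upward (median 22.2) with isotype, and from 0.802 to 160 (median 3.05) and from 3.54 to 175 (median 32.7) with anti-PD-1. Its log2 fold change was 1.76 (SE 0.66, adjusted p = 0.0373), a call lost in 11 of the 32 fits that left out a single tumor, with adjusted p-values up to 0.0943. The estimate ran from 1.43, without replicate 3 of the irradiated primary tumors given isotype, to 2.96, without replicate 4 of the unirradiated ones given anti-PD-1.

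Under isotype alone, 5 of the 10 members were called higher after radiation in primary tumors, where 9.19% of all genes were: Csf3r, Cxcr2, Fpr1, Fpr2 and Cxcl2. Cxcr2 was the least firm of these (log2 fold change 2.90, SE 0.97, adjusted p = 0.0312) and lost its call in 5 of the 16 fits without a single tumor. The 5 members that were not called had log2 fold changes of 1.65 (Retnlg and Cxcl1) to 2.70 (S100a9), with adjusted p-values of 0.0682 to 0.215.

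In transplants, 3 of the 10 members rose after 20 Gy over both antibodies, against 5.85% of all genes called higher: Fpr1, Fpr2 and Csf3r. The median log2 fold change of the 10 was 0.49, and that of all genes -0.02. Fpr1 was 2.10, 2.31, 6.30 and 2.49 CPM in unirradiated transplants given isotype and 65.8, 18.7, 23.6 and 19.7 in irradiated ones. With anti-PD-1 it was 9.60, 5.86, 6.22 and 2.16 at 0 Gy and 35.1, 57.8, 27.1 and 17.2 at 20 Gy. No irradiated transplant overlapped an unirradiated one, and the rise was 7.46-fold (log2 fold change 2.90, SE 0.44, adjusted p = 2.66e-05).

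Fpr2 was 5.89, 6.23, 14.0 and 5.40 CPM at 0 Gy and 35.1, 23.7, 33.9 and 26.8 at 20 Gy with isotype, with no overlap. With anti-PD-1 it was 23.5, 8.85, 24.5 and 8.11 at 0 Gy and 30.7, 66.8, 60.1 and 32.9 at 20 Gy, again with no overlap, although 1 irradiated tumor given isotype, at 23.7, lay below the highest unirradiated tumor given anti-PD-1. The log2 fold change was 1.74 (SE 0.35, adjusted p = 0.000817). Csf3r was 37.1, 46.8, 68.0 and 43.8 CPM at 0 Gy and 84.9, 99.5, 148 and 120 at 20 Gy with isotype, and 77.3, 34.8, 88.7 and 30.4 against 81.9, 211.5, 169 and 144.4 with anti-PD-1. It rose 2.46-fold (log2 fold change 1.30, SE 0.39, adjusted p = 0.0283), did not overlap between doses under isotype but did under anti-PD-1, and lost its call in 7 of the 16 fits without a single tumor (adjusted p up to 0.0793).

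The other 7 members were not called in transplants, and 4 of them had log2 fold changes below 0. The fit took 1 estimate of spread per gene from all 48 tumors, so SEs in transplants also reflect the primary tumors. Under isotype Cxcl5 had SDs of log2 CPM of 0.46 and 0.41 in transplants at 0 and 20 Gy. In primary tumors they were 2.39 and 1.75. The SE of Cxcl5 in transplants under isotype was 1.29. For Fpr1 the SDs were 0.73 and 0.85 against 0.82 and 0.47. S100a9 was 11.9, 18.4, 83.4 and 22.5 CPM at 0 Gy and 22.8, 5.90, 9.32 and 2.25 at 20 Gy with isotype, and 27.4, 1.91, 266 and 15.4 against 30.2, 39.6, 46.6 and 16.3 with anti-PD-1. The doses overlapped, and a single unirradiated tumor at 266 CPM held the top of the range. The log2 fold change was -1.49 (SE 1.11, adjusted p = 0.512), that of S100a8 was -0.83 (SE 1.05, adjusted p = 0.748), and that of Cxcl5 was -0.12 (SE 0.91, adjusted p = 0.974).

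Retnlg was 1.48, 6.07, 7.75 and 5.99 CPM at 0 Gy and 0.720, 2.08, 0.740 and 0.836 at 20 Gy in transplants given isotype. With anti-PD-1 it was 7.88, 0.268, 31.7 and 2.16 at 0 Gy and 1.33, 14.6, 10.7 and 1.83 at 20 Gy. Under isotype only 1 irradiated value lay inside the unirradiated range, while under anti-PD-1 the ranges overlapped. The log2 fold change was -2.28 under isotype (SE 1.31, adjusted p = 0.529) and -1.42 over both antibodies (SE 0.90, adjusted p = 0.414). Under isotype a fit on the compared groups alone called Retnlg lower, so this result depends on the fit.

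Cxcr2 was 4.01, 8.34, 6.17 and 10.9 CPM at 0 Gy and 6.23, 5.14, 10.6 and 3.47 at 20 Gy with isotype, and 15.6, 1.23, 14.8 and 6.64 against 5.93, 41.3, 21.5 and 15.3 with anti-PD-1, overlapping throughout (log2 fold change 0.46, SE 0.90, adjusted p = 0.857). Cxcl1 was 7.33, 14.6, 5.09 and 10.6 CPM at 0 Gy and 33.5, 9.09, 7.95 and 7.45 at 20 Gy with isotype, where 1 irradiated tumor stood apart. With anti-PD-1 it was 18.7, 3.49, 6.50 and 20.0 against 14.99, 9.47, 21.1 and 20.1. Its log2 fold change was 0.53 (SE 0.63, adjusted p = 0.728). For Cxcl2, 8 of 8 irradiated transplants were above the unirradiated median, with 2.96 to 10.4 CPM against 0.572 to 5.78, but the fold change missed the threshold (log2 fold change 1.19, SE 0.76, adjusted p = 0.418).

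**Figure D2:**
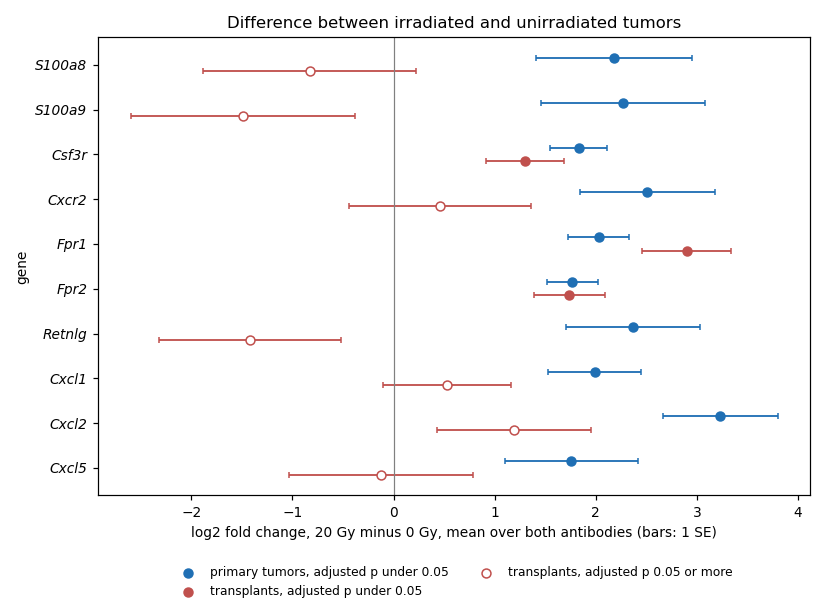
Log2 fold change of each gene between 20 and 0 Gy (horizontal axis, mean over both antibodies, bars of 1 SE from edgeR's fit) in primary tumors (blue) and transplants (red), with filled points for an adjusted p under 0.05. The 10 blue points lie between 1.76 and 3.23, and the red points run from -1.49 for S100a9 to 2.90 for Fpr1, with only Csf3r, Fpr1 and Fpr2 filled. The SEs of both models rest on 1 estimate of spread per gene from all 48 tumors.

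Whether radiation acted differently in the models was asked with an interaction term. None of the 10 members was called, and 0.0259% of all genes were (5 genes by edgeR, against 1652 at an unadjusted p under 0.05, 69 by DESeq2 and 7 by limma voom). The estimates were farthest below 0, meaning a lower change in transplants, for Retnlg (-3.79, SE 1.13, adjusted p = 0.210), S100a9 (-3.76, SE 1.39, adjusted p = 0.373) and S100a8 (-3.02, SE 1.32, adjusted p = 0.502). DESeq2 called Retnlg alone among the members (-3.84, adjusted p = 0.0426). For Fpr2 the estimate was -0.04 (SE 0.41), so its rise differed between models by less than its error. The difference between the models in the members other than Retnlg was not called by any of the 3 tools.

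Under isotype alone, 2 of the 10 members rose with radiation in transplants, Fpr1 (log2 fold change 3.27, SE 0.63, adjusted p = 0.00298) and Fpr2 (1.92, SE 0.50, adjusted p = 0.0299), where 1.82% of all genes were called higher. Fpr2 lost its call in 6 of the 8 fits without a single tumor, with adjusted p-values up to 0.156. A fit on the compared groups alone also called Csf3r higher and Retnlg lower.

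Other genes of neutrophils and of the CXCR2 pathway were taken from lists drawn up with earlier results of these data known. Counts over these lists describe the data and are not an independent test. In primary tumors after radiation 16 of 17 other neutrophil surface genes that were tested rose, and none fell, with a median log2 fold change of 2.40. They included Clec4e, a receptor for microbial and damage products (2.58, adjusted p = 8.93e-07), and Mcemp1 (2.51, adjusted p = 1.44e-06). In transplants 2 of the 17 rose and none fell, among them Ifitm6 (1.87, adjusted p = 0.0157).

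Genes for neutrophil granule proteins, most of which are made before neutrophils leave the marrow, moved less evenly. In irradiated primary tumors 8 of 15 rose and none fell, with Mmp8, a granule collagenase, at a log2 fold change of 4.12 (adjusted p = 7.31e-07) and Cebpe, a transcription factor of granule genes, at 2.72 (adjusted p = 5.55e-06). Under isotype alone 3 of the 15 rose in primary tumors and Ngp fell (-3.20, adjusted p = 0.0485), beside 1776 of all genes called higher and 1758 lower. In irradiated transplants over both antibodies none rose and 3 fell: Ngp at -6.57 (adjusted p = 0.000468), Ltf, which encodes lactoferrin, at -4.27 (adjusted p = 0.00125) and Camp, which encodes cathelicidin, at -4.11 (adjusted p = 0.0169). The summed level of the 15 genes did not fall at the median, with 125.8 CPM in unirradiated and 204.8 CPM in irradiated transplants. Its highest value, 985.6 CPM, was in replicate 3 of the unirradiated transplants given anti-PD-1, which had 1045 CPM of red blood cell genes. The part of single tumors and of blood in these falls was not examined.

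On the ligand side, 10 of 16 tested genes of CXCR2 ligands, their inducers and feedback genes rose in irradiated primary tumors and none fell. Csf2, which encodes the growth factor GM-CSF, had the largest named change (3.83, adjusted p = 4.99e-08). Tnf, a cytokine that induces the ligands, rose by 1.85 (adjusted p = 1.22e-06), and Nfkbia, an inhibitor of NF-kB that NF-kB itself induces, by 0.68 (adjusted p = 1.12e-07). In transplants 7 of the 16 rose and 1 (Ppbp, a platelet chemokine) fell, with Tnf at 1.74 (adjusted p = 0.00179), Nfkbia at 0.65 (adjusted p = 0.000428) and Zc3h12a, an RNase that degrades cytokine messages, at 0.77 (adjusted p = 0.000855).

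Of the genes tied to the S100 and formyl peptide receptor proteins, 5 of 9 rose in irradiated primary tumors and 1 fell. Tyrobp, a signalling adaptor of myeloid cells, rose by 1.05 (adjusted p = 0.000177), Saa3, a serum amyloid A gene, by 2.45 (adjusted p = 0.00692), and Anxa1, whose product annexin A1 also binds the receptors, fell by 0.41 on the log2 scale (adjusted p = 0.00837). In transplants Tyrobp (1.05, adjusted p = 0.0202) and Tlr4, a receptor for calprotectin (0.56, adjusted p = 0.0221), rose and none fell.

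Markers of other cells moved with radiation as well. The 4 pan-leukocyte genes all rose in both models, and their summed level was 434 to 756 CPM in unirradiated and 432 to 1940 in irradiated primary tumors, and 477 to 1271 against 1385 to 2144 in transplants, with no overlap in transplants. Of 14 monocyte and macrophage genes, 11 rose and Cx3cr1 fell in primary tumors, and 6 rose in transplants, where their sum went from 1645 to 4005 CPM to 3851 to 7495 CPM. Ly6c2, a marker of inflammatory monocytes, rose by 2.73 in primary tumors (adjusted p = 5.79e-07) and by 2.26 in transplants (adjusted p = 0.00375). Among 9 genes of eosinophils, mast cells and basophils, 3 rose and 1 fell in primary tumors, and Prg2 fell in transplants (-4.51, adjusted p = 0.00170). In primary tumors 8 of 9 muscle genes rose and 1 of 8 fibroblast genes (Pdgfra) fell. None of the 5 red blood cell genes and none of the 5 skin genes tested was called in either model, and of 6 endothelial genes only Kdr was called, in transplants. The part of these cells in the members' rise was not tested.

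Anti-PD-1 against isotype was asked at each dose in each model, and none of the 10 members was called in any of the 4 comparisons. In each of them 0% of all genes were called by edgeR. At an unadjusted p under 0.05 there were 3.66% of genes in unirradiated primary tumors, 0.678% in unirradiated transplants, 10.1% in irradiated primary tumors and 2.65% in irradiated transplants, and DESeq2 called 6, 1, 45 and 1 genes while limma voom called 0 in each. The largest estimates for a member were those of Retnlg at 20 Gy, with a log2 fold change of 2.40 in primary tumors (SE 0.93, adjusted p = 0.404) and 2.70 in transplants (SE 1.33, adjusted p = 0.936). For the Fpr genes at 20 Gy the estimates lay between -0.09 and 0.67, with SEs of 0.34 to 0.58.

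The combination of 20 Gy and anti-PD-1 against 0 Gy and isotype uses the same control tumors as radiation under isotype. In primary tumors 8 of the 10 members rose, beside 11.4% of all genes. Retnlg had the largest fold change (log2 fold change 4.05, adjusted p = 0.00395), from 0.207 to 1.39 CPM (median 0.478) to 0.5675 to 49.8 (median 4.19). S100a8 (3.04, adjusted p = 0.0536) and S100a9 (3.12, adjusted p = 0.0567) missed the threshold, and DESeq2 called both (adjusted p = 0.0104 and 0.0107). Cxcl1 (1.98, adjusted p = 0.0286) lost its call in 4 of the 16 fits without a single tumor and Cxcl5 (3.06, adjusted p = 0.0243) in 1. In transplants 2 of the 10 rose, beside 4.13% of all genes: Fpr1 (3.37, SE 0.63, adjusted p = 0.00167) and Fpr2 (2.59, SE 0.51, adjusted p = 0.00237), while Csf3r reached 1.63 (SE 0.55, adjusted p = 0.0846). The interaction of the combination with the model called no member and 0% of all genes by edgeR, with 1237 genes at an unadjusted p under 0.05, 4 by DESeq2 and 0 by limma voom.

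Transplants and primary tumors were then compared directly. Since the transplants share 1 cell line, these comparisons hold for that line, and other lines were not examined. As the mean of the 4 treatments, 3 of the 10 members were higher in transplants, beside 15.7% of all genes: Fpr2 (log2 fold change 1.27, SE 0.20, adjusted p = 3.54e-06), Fpr1 (1.02, SE 0.24, adjusted p = 0.000952) and Csf3r (0.78, SE 0.23, adjusted p = 0.00614). Of the 16 transplants, 16 were above the primary median for Csf3r, 13 for Fpr2 and 12 for Fpr1, and the models overlapped for all 10 genes. None of the ligands was called, and their log2 fold changes were -0.37 for Cxcl5, -0.65 for Cxcl1 and -0.76 for Cxcl2. Retnlg (1.23, SE 0.53, adjusted p = 0.0664) missed the threshold and was called by DESeq2 and by limma voom.

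Without treatment beyond isotype, 0 of the 10 members were called between the models, beside 10.3% of all genes called in either direction (1988 genes, and 4890 at an unadjusted p under 0.05). Retnlg was 8.63-fold higher in transplants, at 1.48 to 7.75 CPM against 0.207 to 1.39, and its ranges did not overlap, but its adjusted p was 0.0520. Csf3r was 2.44-fold higher (adjusted p = 0.0579). DESeq2 called both genes, with adjusted p-values of 0.0204 for Retnlg and 0.0452 for Csf3r, and a fit on these 2 groups alone called them as well. The 3 ligands had log2 fold changes of -0.28 (Cxcl1), 0.10 (Cxcl2) and, for Cxcl5, a fold of 2.30, with adjusted p-values of 0.512 to 0.959.

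Under anti-PD-1 alone, 1 of the 10 members was higher in transplants, beside 3.39% of all genes: Fpr2, at 8.11 to 24.5 CPM against 2.73 to 9.502 (log2 fold change 1.61, SE 0.40, adjusted p = 0.00932), with some overlap. This call was lost without transplant replicate 1 or 3 of that group (adjusted p up to 0.0928). The same comparison turned on a single primary tumor for other members: without replicate 4 of the primary tumors, S100a8, S100a9, Csf3r and Retnlg were called as well, with log2 fold changes of up to 5.37 for S100a8 against 2.29 with it. Without transplant replicate 3 the estimates for S100a8 (-0.23) and S100a9 (-0.49) turned below 0. Both tumors also had the highest summed levels of 5 red blood cell genes among the 48, at 729 CPM for the primary tumor and 1045 for the transplant, and the part of blood in these values was not tested.

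After 20 Gy with isotype, 0 of the 10 members were called between the models, beside 4.87% of all genes called in either direction (942 genes, and 3599 at an unadjusted p under 0.05, with 1449 by DESeq2 and 906 by limma voom). Fpr1 did not overlap between transplants (18.7 to 65.8 CPM) and primary tumors (6.75 to 18.3 CPM), with a log2 fold change of 1.43 (SE 0.48) and an adjusted p of 0.0760 that fell to 0.0444 with limma voom. After 20 Gy with anti-PD-1, 1 of the 10 was higher in transplants, beside 3.04% of all genes: Fpr2, at 30.7 to 66.8 CPM against 5.71 to 29.2, with no overlap (log2 fold change 1.63, SE 0.40, adjusted p = 0.0131). The call was lost without transplant replicate 2 or 3 (adjusted p up to 0.0902) and in a fit on these 2 groups alone. The 3 ligands lay below 0 in irradiated transplants against irradiated primary tumors, from -1.25 to -1.93 on the log2 scale under either antibody, and none was called.

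Outside the set, granule and other surface genes were called higher in transplants at 0 Gy and not at 20 Gy. At 0 Gy 6 of 15 granule and 6 of 17 surface genes were higher with isotype, and 11 and 5 with anti-PD-1. Of all 19327 genes, 750 were higher with isotype and 656 with anti-PD-1. As the mean of the 4 treatments, 3034 of all genes were higher and 3695 lower. At 20 Gy none of either list was called under either antibody by edgeR, with median log2 fold changes of -0.29 and -0.15 for surface genes and -0.07 and 0.28 for granule genes. As the mean of the 4 treatments 10 of 15 granule genes were higher, with Fcnb at 3.07 (adjusted p = 1.28e-05), and Mmp9 was lower. Of 17 surface genes, 7 were higher, with Trem3 at 1.75 (adjusted p = 1.64e-05), and Cxcr1, the other receptor for ELR chemokines, was lower. Of 16 CXCR2 pathway genes, 6 were higher and 4 lower, the latter including Cxcl12, the ligand of CXCR4 (-1.06, adjusted p = 8.14e-06). Of the 9 genes tied to the S100 and formyl peptide receptor proteins, Tyrobp was higher, and Cd33 and Ager were lower. Of 4 pan-leukocyte genes 3 were higher, and of 8 fibroblast genes 7 were lower in transplants. None of the 9 muscle genes and none of the 5 red blood cell genes was called.

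How the members varied together was described by Spearman's rho of log2 CPM over the 48 tumors, which share treatments and models. The 45 pairs had a median rho of 0.69, from 0.35 to 0.98. After subtracting each group's mean, which leaves only the variation between tumors treated alike, the median was 0.54, from -0.03 to 0.98. S100a8 and S100a9 were the closest pair (0.98 on both scales), and Cxcr2 followed S100a9 (0.89 on both). Cxcl1 and Cxcl2 stood at 0.93 and 0.86, and Cxcr2 and Cxcl5 at 0.91 and 0.86.

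The Fpr genes formed a pair of their own. Fpr1 and Fpr2 were at 0.93, and at 0.77 within groups. Within groups Fpr1 had rho of 0.12 with Cxcr2, 0.04 with Cxcl1, 0.08 with Cxcl2 and -0.03 with Cxcl5. Csf3r lay between the Fpr genes and the rest, at 0.62 with Fpr2 and 0.63 with Cxcr2 within groups.

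**Figure D3:**
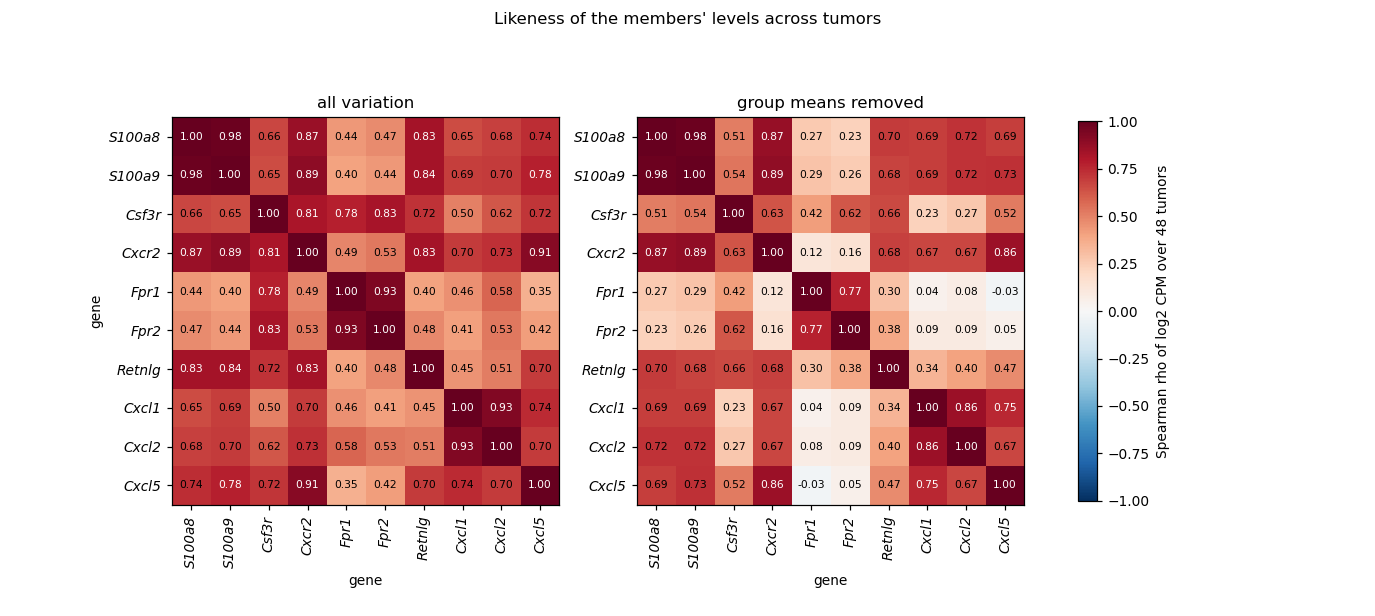
Spearman's rho between the levels of each pair of genes over 48 tumors (colour and printed value, from -1 to 1), for all variation (left) and after the mean of each of the 8 groups was subtracted (right). In the right panel the rows of Fpr1 and Fpr2 fall to between -0.03 and 0.16 against Cxcr2 and the 3 ligands, while S100a8, S100a9 and Cxcr2 stay at 0.87 to 0.98 among themselves.

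The summed marker lists set the members apart in a similar way. Fpr2 had rho of 0.92 with the 4 pan-leukocyte genes and 0.78 with the monocyte and macrophage genes, and in the 16 transplants alone 0.94 and 0.96. Fpr1 had 0.86 and 0.78. S100a9 had 0.35 and 0.27 with the same lists, and Cxcr2 0.44 and 0.35. Csf3r followed the other neutrophil surface genes most closely (0.95), followed by Cxcr2 (0.86) and Fpr2 (0.81). With red blood cell genes S100a8, S100a9 and Retnlg had rho of 0.62 each, against 0.26 for Fpr1, and with the summed granule genes no member exceeded 0.13 over the 48 tumors. In the 16 transplants alone the granule genes had rho of 0.66 with Csf3r, 0.61 with Fpr2 and 0.47 with Fpr1, against 0.04, -0.04 and -0.07 in the 32 primary tumors. The granule sum adds CPM, so the most abundant genes of the list weigh most. It was 2032 CPM in replicate 1 of the unirradiated primary tumors given isotype, where the other surface genes summed to 27.8 CPM. In replicate 5 of the irradiated primary tumors given anti-PD-1 the values were 2189 and 163.3 CPM. These rho values therefore do not describe each granule gene. With muscle genes the members ran from -0.19 (Cxcl1) to 0.35 (Retnlg). These lists and the members share libraries, and the values are descriptions.

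**Figure D4:**
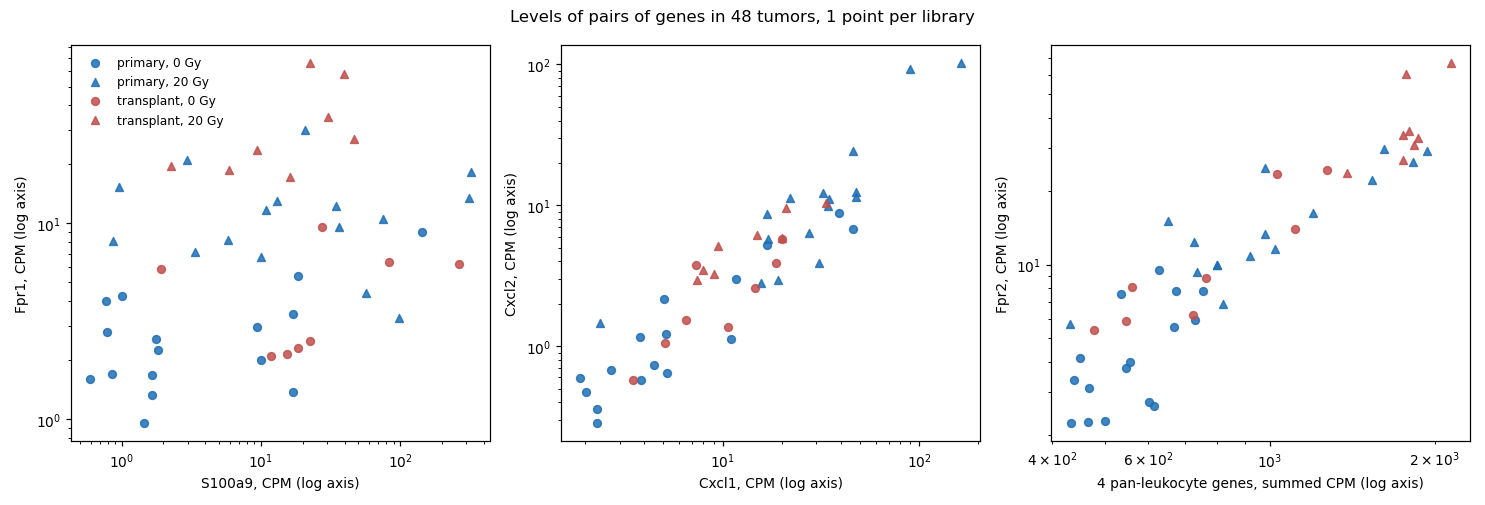
Levels of Fpr1 against S100a9, of Cxcl2 against Cxcl1, and of Fpr2 against the summed level of 4 pan-leukocyte genes (Ptprc, Itgb2, Laptm5, Coro1a), in CPM on log axes, 1 point per tumor, with blue for primary tumors, red for transplants, circles for 0 Gy and triangles for 20 Gy. The middle and right panels form narrow bands (rho of 0.93 and 0.92 over 48 tumors), while in the left panel (rho of 0.40) the 6 tumors with S100a9 between 0.771 and 1.01 CPM hold Fpr1 from 1.69 to 15.3 CPM.

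Of all tested genes, those most like each member over the 48 tumors were named. For Cxcr2 they were Mirt2 and Asprv1 (rho 0.95 each), Il1f9, Stfa2l1 and Gm5483, and Asprv1, Mirt2 and Il1f9 also led for Cxcl5 (0.87, 0.87 and 0.86). For S100a8 and S100a9 they were led by BC100530 (0.90) and Ankrd22 (0.92). For Csf3r they were led by Tnfsf14 (0.95), Cd300lf and Mcemp1. For Fpr2 the closest was Cd274, the gene for PD-L1 (0.96), followed by Sirpb1b, Il27, Scimp and Cd69. For Fpr1 they were Slfn2 (0.92), Ifi209, Pilra, Cd53 and Apobec1. For Cxcl1 the closest was Il6 (0.84), followed by Timp1, and for Cxcl2 Gm5483 (0.86), while Retnlg had Lin28a (0.85) and Arg2 (0.84).

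Of the 2 libraries of line 402230, each without a replicate, the one labelled primary tumor had the lower level of all 10 members. In the library labelled primary tumor, with 48457411 counts, Csf3r, Fpr1 and Retnlg had 0 counts, for which a limit of 3 counts or 0.0619 CPM was used (the upper end of the exact two-sided 95% Poisson interval is 3.69 counts or 0.0761 CPM), S100a9, Cxcr2 and Fpr2 had 1 count each, and S100a8 had 2. The ligands were present in it: 169 counts of Cxcl1 (3.49 CPM, exact 95% Poisson interval 2.98 to 4.06), Cxcl5 at 2.39 CPM (1.98 to 2.87) and 11 of Cxcl2 (0.227 CPM, 0.113 to 0.406). None of the 48 tumors was below it for any of the 7 neutrophil genes or for Cxcl2, but 7 were below it for Cxcl1 and 8 for Cxcl5. The intervals cover counting error only.

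The library labelled cell line, with 41226531 counts, held all 10: 1363 counts of Csf3r, 1248 of Cxcl5, 906 of S100a9, 802 of S100a8, 452 of Cxcr2, 408 of Cxcl1, 208 of Fpr2, 195 of Fpr1, 110 of Cxcl2 and 67 of Retnlg. Scaled by total counts it was at least 534-fold higher than the library labelled primary tumor for Csf3r, 76.4-fold for Fpr1 and 26.3-fold for Retnlg, each against the limit of 3 counts. For Cxcl1 it was 2.84 times as high (95% interval 2.37 to 3.42), for Cxcl2 11.8 times (6.32 to 24.2) and for Cxcl5 12.7 times (10.5 to 15.4). Its values lay inside the range of the 8 primary tumors at 0 Gy with isotype for 6 members and above it for S100a8, S100a9, Cxcr2 and Retnlg. The test of reads between these libraries compares the libraries and not tumor with culture, and which library came from which material was not tested.

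**Figure D5:**
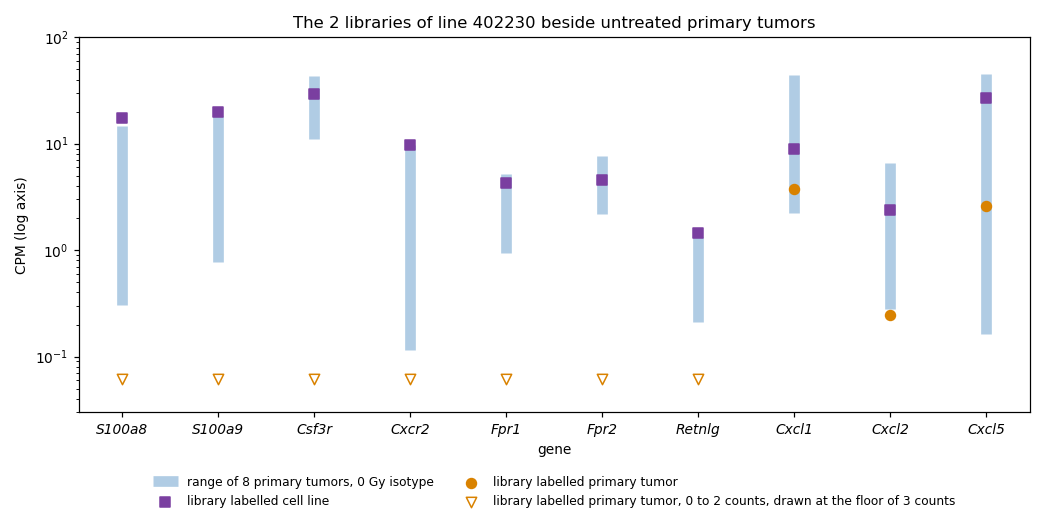
Level of each gene in the library labelled cell line (purple squares) and the library labelled primary tumor (orange circles, or open triangles at the limit of 3 counts where it had 0 to 2 counts), beside the range of the 8 primary tumors at 0 Gy with isotype (blue bars), in CPM on a log axis, scaled over 50 libraries. The 7 neutrophil genes are at the limit in the library labelled primary tumor, while Cxcl1, Cxcl2 and Cxcl5 were read there at 3.78, 0.246 and 2.59 CPM.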

How the data were processed

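Per the labels and the methods, the authors made poly(A)-selected stranded libraries (KAPA Stranded mRNA-Seq), trimmed paired-end reads with Trimmomatic 0.36, aligned them to mm10 with STAR and counted reads per gene of GENCODE M17 with the HTSeq method in STAR; the strand setting was not given in the sources used here. The authors deposited raw whole-number counts, with no normalization and no pooled replicates. Poly(A) selection and counting of uniquely placed reads leave near-identical genes and overlapping genes uncertain.

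Symbols and positions came from GENCODE M21 (GRCm38), which matched 37408 of 37469 identifiers ignoring version numbers; promoters came from RefSeq. Counts of 48 tumors were filtered by expression within groups (19327 genes kept), scaled by TMM, and fitted with 1 mean per group in edgeR 4.0.16 (R 4.3.3) by robust quasi-likelihood tests, with Benjamini-Hochberg adjustment over all genes tested and a threshold of 0.05. The fit was tested on simulated data. CPM used TMM-scaled totals, and log2 CPM a prior count of 2. DESeq2 1.42.0, limma voom 3.58.1, other scalings, no filter, fits on the compared groups alone, and leaving out single libraries were tried; leaving out the libraries high in muscle genes was chosen after seeing the data. Replicate numbers follow accession order and pair nothing. Total counts were 31810461 to 54008259 a library, and the common dispersion between tumors of a group was 0.230.

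The members and the gene lists were chosen with earlier results of these data known. The rule for named genes was all 10 members, up to 4 called genes of each list per comparison by adjusted p, and the 5 genes with the highest rho to each member. Where the text names further called genes of a list, they were named after their values were seen. A gene that the rule names is not reported here.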

Additional observations from a re-analysis of the deposited data

Results flagged for a closer look

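Of 80 sets of replicate values (10 genes in 8 groups), 11 held a tumor far from the others of its group on the log2 scale. Chance would give about 4 if the sets were independent. The genes vary together and share libraries, so the sets are not independent and 11 against 4 cannot show an excess. In irradiated transplants given isotype, replicate 1 was highest for S100a8 (33.68 CPM, next 8.988), Cxcl1 (33.5, next 9.088) and Cxcl2 (10.4, next 3.453), replicate 2 was highest for Retnlg (2.075, next 0.8358), and replicate 4 was lowest for Cxcl5 (8.028, next 13.81). In unirradiated transplants given isotype, replicate 3 was highest for Fpr1 (6.304 CPM, next 2.489) and Fpr2 (14.0, next 6.231), and replicate 1 was lowest for Retnlg (1.479, next 5.986). In unirradiated primary tumors given anti-PD-1, replicate 4 was highest for S100a8 (91.23 CPM, next 4.656) and Csf3r (103.5, next 28.24). In irradiated primary tumors given isotype, replicate 3 was highest for Cxcl2 (92.33 CPM, next 12.43).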

How the results depend on the processing

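The number of members called changed by over 1.5 times under these settings. Between the models at 0 Gy with isotype it went from 0 to 2 with DESeq2 and with a fit on the compared groups alone, and to 1 (1.0) when the library labelled primary tumor of line 402230 was added. Under anti-PD-1 at 0 Gy it went from 1 to 2 with DESeq2. At 20 Gy with isotype it went from 0 to 1 with limma voom and on the groups alone, and at 20 Gy with anti-PD-1 from 1 to 2 with DESeq2, limma voom and total count scaling, and to 0 on the groups alone. Over all treatments limma voom called 5 against 3. For radiation under isotype DESeq2 called 8 against 5 in primary tumors, the groups alone gave 4 against 2 in transplants (Csf3r higher, Retnlg lower), and DESeq2 called 1 against 0 for the interaction. The median rho of the pairs went from 0.691 to 0.536 with group means removed. The causes were not tested.

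Leaving out single tumors gave 0 to 1 members between the models at 0 Gy with isotype, 0 to 5 at 0 Gy with anti-PD-1, 0 to 2 at 20 Gy with anti-PD-1, 3 to 5 over all treatments, and 1 to 2 for radiation under isotype in transplants. For S100a8 the difference between models at 0 Gy with anti-PD-1 ran from -0.23 to 5.37 and over all treatments from -0.03 to 1.37, and for S100a9 at 0 Gy with anti-PD-1 from -0.49 to 4.93, with each low value from leaving out replicate 3 of the transplants at 0 Gy with anti-PD-1. For radiation in primary tumors 7 to 10 members stayed called, and without a filter on low counts S100a8 (adjusted p = 0.0583), S100a9 (0.0592) and Cxcl5 (0.0765) were not.

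Over all genes, calls for radiation in primary tumors under isotype were 3534 and on the groups alone 2154, in transplants 372 against 599 with DESeq2, 228 with no filter and 1047 on the groups alone, and in transplants over both antibodies 1398 against 2432. For the combination in primary tumors they were 3635 against 1396 on the groups alone and 2146 without the muscle-high libraries. Between the models they were 942 against 1449 with DESeq2 at 20 Gy with isotype, and 1307 against 2071 with DESeq2, 742 with no filter and 2 on the groups alone at 20 Gy with anti-PD-1. The interaction of radiation with model gave 5 against 69 with DESeq2, 3 with total count scaling, 0 with no filter and 1 without the muscle-high libraries, and that of the combination 0 against 4 with DESeq2. For anti-PD-1 the main count of 0 became 6 and 45 in primary tumors at 0 and 20 Gy and 1 in transplants at each dose with DESeq2, and 4 in primary tumors at 20 Gy without the muscle-high libraries. Total count scaling moved the share called higher for radiation under isotype in primary tumors from 50.3% to 61.4%. No paired analysis was possible because the replicate numbers follow accession order and pair no tumors.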

Other observations

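A gene of eosinophils, Prg2, and a granule gene, Ltf, were higher in transplants and fell there with radiation. Prg2, which encodes eosinophil major basic protein, was higher in transplants than in primary tumors over all treatments (log2 fold change 2.55, SE 0.53, adjusted p = 0.000194) and fell with radiation in transplants (-4.51, SE 0.98, adjusted p = 0.00170). Ltf was likewise higher in transplants (2.38, adjusted p = 0.000112) and fell there with radiation (-4.27, SE 0.90, adjusted p = 0.00125). The list of Prg2 joins genes of eosinophils, mast cells and basophils. Over all treatments Siglecf was higher in transplants (1.35), like Prg2, while Cpa3 (-1.23) and Fcer1a (-1.25) were lower. At 0 Gy with anti-PD-1, Ccr3 (2.51, adjusted p = 0.0106) and Siglecf (2.47, adjusted p = 0.0287) were higher in transplants beside Prg2, and no gene of the list was called lower there. The 9 tested genes of that list summed to 361.3 CPM in replicate 3 of the unirradiated transplants given anti-PD-1. The median of unirradiated transplants was 49.88 CPM. The part of this tumor in both falls was not examined.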
